A study of Komagataella phaffii with 32 samples.

Results

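The mRNAs of the nuclear RNA polymerases were followed in the yeast Komagataella phaffii after a shift to alkaline medium. The genes were chosen by name alone: their symbol in the authors' deposited table of comparisons begins with RPA, RPB, RPC or RPO followed by a digit, and RPO41, which codes for the mitochondrial polymerase, was left out. This gave 29 of the 5040 genes measured. By the roles of their Saccharomyces cerevisiae namesakes, 6 code for subunits of polymerase I alone, 7 for polymerase II alone, 9 for polymerase III alone, 2 for subunits of polymerases I and III, and 5 for subunits of all nuclear polymerases. Subunits that carry other symbols, such as RET1 of polymerase III, fall outside the rule.

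RNA came from whole cells of a crz1 mutant (strain PJA-001, genotype label crz1_559), a rim101 mutant (strain PJA-007, genotype label rim101_117) and the wild type (WT, X-33), from which both mutants are derived. Crz1 and Rim101 are transcription factors, known in yeasts from calcineurin signalling and from the response to alkaline pH. Each mutant is represented by 1 strain. The sample labels give X-33 as the wild type and the text of the series gives GS115. All strains grew in rich medium with glycerol and were resuspended in buffered medium. T0 was taken at pH 5.5 at once, and T15, T30 and T60 were taken 15, 30 and 60 min later at pH 8.0. There were n = 3 libraries per time for crz1, n = 2 for rim101 and n = 3 for WT, or 32 in all. After T0 no culture at pH 5.5 was sampled, so pH, time since resuspension and growth cannot be told apart. The labels do not say whether replicates were separate cultures, so p-values measure only the spread between these libraries, which may be technical.

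RNA polymerase I makes the large ribosomal RNA precursor, polymerase II makes mRNAs, and polymerase III makes tRNAs and the smallest ribosomal RNA. Each enzyme is built around its largest and second largest subunits, which form the active centre, with a small stalk, an assembly platform and, in polymerases I and III, extra subunits that resemble initiation factors of polymerase II. In S. cerevisiae the genes of polymerases I and III and those of ribosome assembly are known to change together when growth conditions change.

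Values are RPKM, mapped reads divided by gene length in kilobases and by the size of the library, so levels can be set side by side between genes. The spacing of low values gave a depth of 4.95 to 16.5 M reads in 30 libraries, with a median of 7.71 M (2 libraries gave no single step). The libraries fell into types that the labels do not name. In 9 libraries, all from T15, T30 or T60, the median of the 4226 genes tested lay between 46.6 and 56.6 RPKM, and in the other 23 it lay between 21.0 and 35.4 RPKM. The higher-median libraries were replicate 1 of the crz1 mutant at each later time, replicate 2 of rim101 at T15, both rim101 libraries at T30, replicate 1 of WT at T30 and replicates 1 and 2 of WT at T60. Where a depth was found, these libraries had 4.95 to 6.89 M reads and the others 6.4 to 16.5 M, so depth moves with library type. WT T0 replicate 2 had 6.63 M, against 12.8 M in WT T0 replicates 1 and 3. What depth does to the levels was not tested. WT T0 replicate 2 also stood apart: 26 of the 29 subunit mRNAs were highest there among the WT T0 libraries, against 44.2% of all genes tested, and 16 were over 2-fold above both others, against 15.4% of all genes. The other 3, RPO21, RPB2 and RPB7 of polymerase II, were lowest in that library. CRZ1 mRNA ran from 21.6 to 54.6 RPKM in the crz1 mutant, against 16.6 to 34.3 RPKM in WT, so its level does not check that label, while RIM101 mRNA ran from 24.3 to 42.1 RPKM in the rim101 mutant, against 20.5 to 151 RPKM in WT.

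Most mRNAs that rose after the shift in the crz1 mutant coded for subunits of polymerase I or polymerase III, with 4 and 3 of 8 at T15, 4 and 2 of 7 at T30, and 3 of polymerase I at T60. These classes also make up much of the list, with 6 and 9 of the 29 members. Of the 29 subunit mRNAs, 8 rose in crz1 at T15, 7 at T30 and 3 at T60 (limma on log2(RPKM + 1), Benjamini-Hochberg adjusted p under 0.05), against 14.6%, 16.8% and 12.4% of all genes tested. The crz1 count at T60 thus lies below the share of all genes. In rim101, none rose at T15, 5 rose at T30 and none at T60, against 5.47%, 23.5% and 2.72% of all genes. No subunit mRNA fell in either mutant, while 8.33%, 5.28% and 5.4% of all genes fell in crz1 and 2.7%, 4.64% and 1.14% in rim101 at T15, T30 and T60 (5 of 29 had an unadjusted p under 0.05 in rim101 at T15, and none at T60). RPA190, RPA135 and RPA49 rose in crz1 at all 3 times, and the rim101 rises at T30 were those of RPB2, RPB7, RPC37, RPC34 and RPC31. Every later crz1 library lay above every T0 library for 16 mRNAs at T15, 21 at T30 and 13 at T60, which was so for 23.1%, 34.5% and 26.7% of all genes tested. In rim101, with n = 2, it held for 15, 23 and 3, against 34.2%, 67.3% and 35.3%, and in WT for 6, 8 and 7, against 21.3%, 31% and 28.4%. Single libraries moved these counts. Without crz1 T0 replicate 1 the crz1 count was 4 at T30 and 0 at T60, and at T60 it was 1 without crz1 T60 replicate 1 or replicate 2. In rim101 the T30 count was 0 without rim101 T0 replicate 1, rim101 T30 replicate 1 or rim101 T30 replicate 2, and the T15 count was 3 without rim101 T0 replicate 2.

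Most mRNAs that rose in WT coded for subunits of polymerase I or polymerase III, and the medians of the polymerase II and shared subunits lay lower at T15. Polymerases I and III also make up much of the list, with 6 and 9 of the 29 members. In WT, 7 of the 29 rose at T15, 12 at T30 and 9 at T60, and none fell (limma, adjusted p under 0.05). Over all genes tested, 13.4% rose at T15, 24.1% at T30 and 26.9% at T60, and 5.18%, 4.07% and 4.61% fell. At T60 the WT count of 9 of 29 is close to the share of all genes, as is that of polymerase III alone, 3 of 9. By enzyme, 4 of 6 mRNAs of polymerase I alone rose at T15, 5 at T30 and 3 at T60. For polymerase II alone it was 0 of 7, then 3, then 2. For polymerase III alone it was 3 of 9, then 4, then 3. Of the 7 mRNAs of shared subunits, none rose at T15 or T30 (0 and 1 had an unadjusted p under 0.05, as did 0 of polymerase II at T15) and 1, RPC40, rose at T60. The median log2 difference of the polymerase I mRNAs was 1.75, 1.68 and 1.75 at T15, T30 and T60, and that of the polymerase III mRNAs was 1.19, 1.52 and 1.43. The polymerase II mRNAs had 0.20, 0.26 and 0.45, the shared ones 0.35, 0.93 and 1.28, and all genes tested had 0.17, 0.62 and 0.65. The WT counts depend on single libraries. Without WT T0 replicate 2, the library that stands apart, 11 mRNAs rose at T15, 13 at T30 and 15 at T60. At T15 the count was 4 without WT T0 replicate 1, WT T0 replicate 3, WT T15 replicate 1 or WT T15 replicate 3. At T30 it was 4 without WT T0 replicate 1, 5 without WT T30 replicate 1, and 7 without WT T0 replicate 3 or WT T30 replicate 2. At T60 it was 1 without WT T0 replicate 1 or WT T60 replicate 1, 3 without WT T60 replicate 2, 4 without WT T0 replicate 3, and 18 without WT T60 replicate 3.

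**Figure D1:**
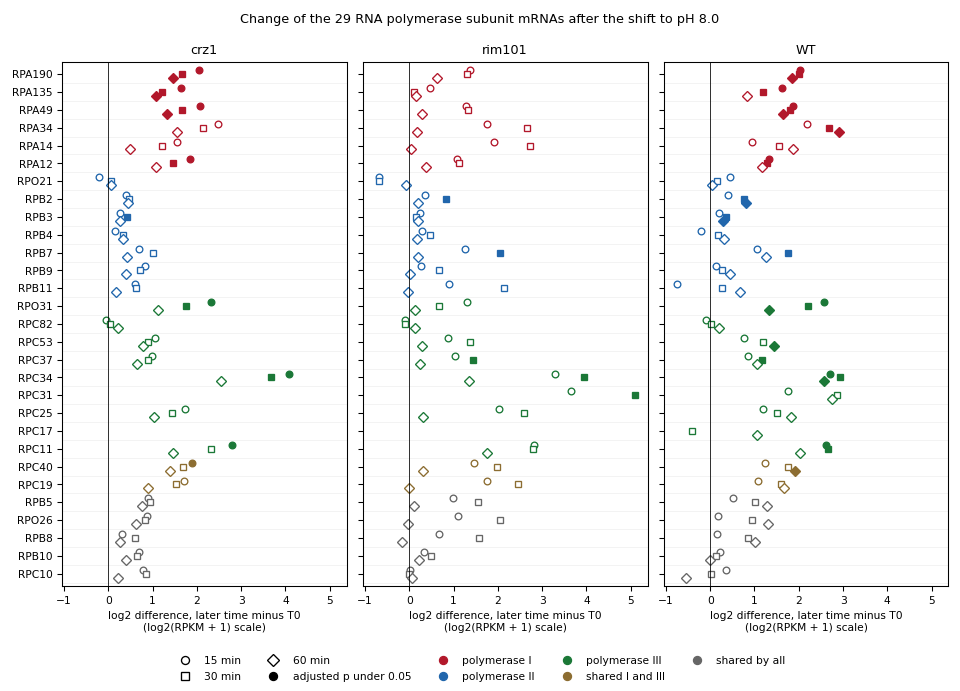
Difference of each subunit mRNA between a later time and T0 in the crz1, rim101 and WT strains (log2(RPKM + 1) scale, later minus T0), coloured by polymerase. Filled symbols passed an adjusted p under 0.05 in limma; no point is drawn where either group is listed at 0 in every library. Polymerase I mRNAs lie right of 0 in every strain at T15, T30 and T60, as do most of the other mRNAs. RPO21, RPB3, RPB4 and RPC82 stay within 1 unit of 0.

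RPA190 (PAS_chr2-2_0387, chromosome 2, 1660528 to 1665450), the largest subunit of polymerase I, had 9.04, 25.5 and 19.8 RPKM at T0, 86.8, 80.0 and 54.1 at T15, 61.7, 48.8 and 56.2 at T30 and 62.3, 41.3 and 42 at T60 in crz1, with every later library above every T0 library. It rose there by 2.05 ± 0.42 (log2 difference ± SE), 1.67 ± 0.42 and 1.46 ± 0.42 at T15, T30 and T60 (limma, adjusted p = 0.000794, 0.00522 and 0.0172). The rim101 mutant had 12.3 and 42.1 RPKM at T0, 49.6 and 74.9 at T15, 63.4 and 53.2 at T30 and 38.6 and 34 at T60. Its T0 libraries lie far apart, the T60 values fall between them, and no rim101 difference of RPA190 passed the test (1.37 ± 0.51, 1.30 ± 0.51 and 0.64 ± 0.51). The WT libraries had 5.71, 23 and 14.4 RPKM at T0, 49.2, 45.1 and 72 at T15, 65.7, 53.1 and 43.6 at T30 and 53.8, 52.9 and 38.8 at T60. All 9 later values exceed all 3 at T0 there. It rose in WT by 2.03 ± 0.42 at T15, 2.01 ± 0.42 at T30 and 1.85 ± 0.42 at T60, which are 4.08-fold, 4.02-fold and 3.62-fold on this scale (limma, adjusted p = 0.00113, 0.00109 and 0.00271). In crz1 the rises at T30 and T60 were lost without the higher-median libraries, and that at T60 also without replicate 1 of crz1 T0 or of crz1 T60. The WT rises at T15 and T30 remained calls under all 7 other settings run and with each library left out, and the WT rise at T60 was lost without the higher-median libraries (1.56, limma adjusted p = 0.189) and with quantile normalization.

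RPA135 (PAS_chr1-4_0324, chromosome 1, 2007927 to 2011424), the second largest subunit, was higher per length than RPA190 at T0 in every library. The crz1 libraries held 17.2, 50.4 and 39.6 RPKM at T0, 84.5, 121 and 107 at T15, 61.2, 87.5 and 85.3 at T30 and 60.3, 71.2 and 81.2 at T60. RPA135 rose there by 1.63 ± 0.33, 1.22 ± 0.33 and 1.09 ± 0.33 (limma, adjusted p = 0.000699, 0.00922 and 0.0237). In rim101 it had 42.3 and 67.2 RPKM at T0, 90.0 and 61.6 at T15, 70.9 and 47.1 at T30 and 61.3 and 58 at T60, with overlap between T0 and each later time and no call. In WT it had 21.2, 44.6 and 33.6 RPKM at T0, 102, 82.7 and 118 at T15, 58, 79.9 and 85 at T30 and 49.6, 47.5 and 80.9 at T60. The later WT libraries exceed the T0 libraries at every time. The WT log2 difference was 1.62 ± 0.33 at T15 and 1.19 ± 0.33 at T30, both past the test, and 0.84 ± 0.33 at T60, which was not (limma, adjusted p = 0.000979, 0.0097 and 0.0535). In each of the 6 groups that hold both types of library, RPA135 was lower in the higher-median libraries, by a mean of -0.50 on the log2 scale, whereas RPA190 was higher by 0.45. Median-ratio scaling and quantile normalization ended the crz1 calls of RPA135 at T30 and T60 and the WT call at T30, and quantile normalization also the WT call at T15. The T30 calls were lost without T0 replicate 1 of the strain concerned, and the crz1 call at T60 without crz1 T0 replicate 1 or replicate 2 or 3 of crz1 T60.

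RPA49 and RPA34 form a dimer on polymerase I that resembles initiation factors of polymerase II. RPA49 (PAS_chr3_0651, chromosome 3, 1241693 to 1242934) had 9.91, 29.9 and 20.0 RPKM at T0, 99.3, 92 and 54.5 at T15, 75.3, 50.0 and 56.7 at T30 and 76.7, 38.7 and 35.1 at T60 in crz1, where the rises were 2.06 ± 0.45, 1.66 ± 0.45 and 1.32 ± 0.45 (limma, adjusted p = 0.00155, 0.00973 and 0.0456). The rim101 libraries had 16.5 and 42.6 RPKM at T0, 55.7 and 77.5 at T15, 80.9 and 58.5 at T30 and 33.7 and 31.4 at T60 with no call, and the WT libraries had 8.12, 35 and 13.7 RPKM at T0, 55.4, 45.1 and 89.5 at T15, 75.6, 54.8 and 46.6 at T30 and 65.1, 56.2 and 38 at T60. It rose in WT by 1.87 ± 0.45, 1.80 ± 0.45 and 1.65 ± 0.45 (limma, adjusted p = 0.0046, 0.00503 and 0.00997), and its T15, T30 and T60 libraries there lie above the T0 libraries. The T15 calls of RPA49 in crz1 and WT remained in every setting run, whereas those at T30 and T60 in both strains were lost without the higher-median libraries. The crz1 call of RPA49 at T30 was also lost without crz1 T0 replicate 1, and that at T60 with quantile normalization and without replicate 1 or 3 of crz1 T0 or replicate 1 or 2 of crz1 T60. The WT call at T60 was also lost with quantile normalization and without replicate 1 of WT T0 or of WT T60. RPA34 (PAS_chr2-2_0083, chromosome 2, 2227076 to 2227594) spread far more, with 12.2, 16 and 11.1 RPKM at T0, 164, 89.3 and 30.9 at T15, 151, 33 and 44.5 at T30 and 115, 22.2 and 24.9 at T60 in the crz1 libraries, and the rim101 libraries had 13 and 30.1 RPKM at T0, 33.2 and 144 at T15, 135 and 126 at T30 and 22.4 and 23.1 at T60. In both mutants the highest RPA34 values came from the higher-median libraries, and no difference passed the test. In WT it had 1.05, 54.9 and 6.75 RPKM at T0, 32.1, 31 and 79.7 at T15, 146, 56.2 and 27.8 at T30 and 128, 144 and 18.7 at T60. The WT T0 libraries alone run from 1.05 to 54.9 RPKM, the highest being WT T0 replicate 2. RPA34 differed from T0 in WT by 2.19 ± 0.98 at T15, which did not pass, and rose by 2.69 ± 0.98 at T30 and 2.90 ± 0.98 at T60 (limma, adjusted p = 0.132, 0.0415 and 0.0288). Without the higher-median libraries the WT difference of RPA34 was 2.08 at T30 and 1.04 at T60 (limma, adjusted p = 0.136 and 0.667). Both RPA34 calls were also lost with quantile normalization and without replicate 1 or 3 of WT T0 or replicate 1 or 2 of the later group, that at T30 with median-ratio scaling and pseudocount 5, and that at T60 with library type as a covariate.

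The remaining polymerase I mRNAs were those of small subunits. RPA12 (PAS_chr2-1_0554, chromosome 2, 1024879 to 1025250), which in S. cerevisiae supports cleavage of the nascent RNA, ranged from 13.9 to 113 RPKM over all libraries. It rose in crz1 at T15 and T30 by 1.85 ± 0.47 and 1.46 ± 0.47, and in WT by 1.33 ± 0.47 and 1.28 ± 0.47 (limma, adjusted p = 0.00478 and 0.0263 in crz1, 0.0493 and 0.0439 in WT). In WT the values at T15 and T0 overlap through WT T0 replicate 2, at 83.9 RPKM. The crz1 call of RPA12 at T15 remained in every setting run, and that at T30 was lost with median-ratio scaling, with quantile normalization, without the higher-median libraries, and without replicate 1 or 3 of crz1 T0 or any 1 library of crz1 T30. The WT calls of RPA12 were lost with pseudocount 5, without the higher-median libraries and without replicate 1 or 3 of WT T0. That at T15 was also lost with no filter and without any 1 library of WT T15, and that at T30 with median-ratio scaling, quantile normalization, library type as a covariate, or without replicate 1 or 2 of WT T30. RPA14 (PAS_chr3_0472, chromosome 3, 904425 to 905099), a stalk subunit in S. cerevisiae, ranged from 10.9 to 203 RPKM and passed no test. Its values above 100 RPKM all came from the higher-median libraries. Over the 3 strains, all 6 polymerase I mRNAs had a positive difference from T0 in each of the 9 comparisons, a count over mRNAs that share their libraries. The median of all genes tested was also above 0 in each, from 0.13 in rim101 at T60 to 0.85 in rim101 at T30. Of all 29 members, between 22 (rim101 at T60) and 29 (crz1 at T30 and T60) had a positive difference, so this sign is not particular to polymerase I.

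**Figure D2:**
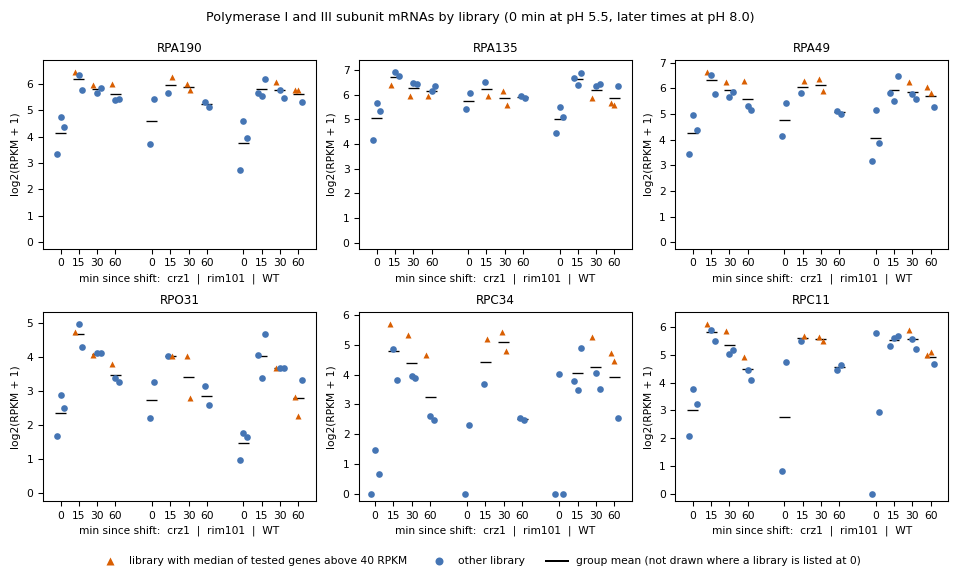
Level of 3 polymerase I mRNAs (RPA190, RPA135, RPA49) and 3 polymerase III mRNAs (RPO31, RPC34, RPC11) in every library, on a log2(RPKM + 1) axis, against minutes since the shift in crz1, rim101 and WT. Triangles are libraries with a median above 40 RPKM, circles are the others, and lines are group means. RPA190, RPA135, RPA49 and RPO31 in crz1 and WT sit above their T0 libraries at T15. In crz1 that holds for triangles and circles, and WT has only circles at T15.

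RPO31 (PAS_chr4_0302, chromosome 4, 600874 to 605256), the largest subunit of polymerase III, had the lowest p-value among the WT rises at T15. In crz1 it had 2.18, 6.37 and 4.63 RPKM at T0, 25.9, 30.4 and 18.7 at T15, 15.8, 16.3 and 16.3 at T30 and 12.8, 9.43 and 8.54 at T60. It rose there by 2.33 ± 0.41 at T15 and 1.75 ± 0.41 at T30, and the 1.12 ± 0.41 at T60 did not pass (limma, adjusted p = 0.000178, 0.00292 and 0.0592). In rim101 it had 3.60 and 8.71 RPKM at T0, 15.5 and 15.5 at T15, 15.4 and 5.93 at T30 and 7.81 and 4.99 at T60, where T15 lies above T0, T30 and T60 overlap it, and no difference passed (1.31 ± 0.50, 0.67 ± 0.50 and 0.12 ± 0.50). In WT it had 0.963, 2.41 and 2.13 RPKM at T0, 15.6, 9.54 and 24.5 at T15, 11.8, 11.8 and 11.8 at T30 and 6.03, 3.78 and 8.97 at T60. Every later WT library lies above every T0 library, and the 3 libraries of T30 lie close together. It rose in WT by 2.58 ± 0.41 at T15, 2.22 ± 0.41 at T30 and 1.33 ± 0.41 at T60, or 5.97-fold, 4.65-fold and 2.52-fold (limma, adjusted p = 8.35e-05, 0.00035 and 0.0181). Library type moved RPO31 by -0.04 on average within groups, with single groups from -0.78 to 0.47. The T15 calls in crz1 and WT remained under all 7 other settings and with each library left out. The T30 calls in both strains were lost with quantile normalization, and the WT call at T60 was lost with median-ratio scaling, quantile normalization, pseudocount 5, without the higher-median libraries, and without WT T0 replicate 1, WT T60 replicate 1 or WT T60 replicate 3.

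RPC82, RPC34 and RPC31 form a trimer that takes part in initiation by polymerase III, and their mRNAs differed in level and in change. RPC82 (PAS_chr2-2_0431, chromosome 2, 1577884 to 1579773) ranged from 58.2 to 110.0 RPKM in all 32 libraries, with differences from T0 between -0.10 and 0.21 and no call. RPC34 (PAS_chr4_0697, chromosome 4, 1340444 to 1341397) was near 0 at T0 in all but 2 libraries. In crz1 it had 0, 1.77 and 0.574 RPKM at T0, 50.7, 28 and 13.1 at T15, 38.8, 14.6 and 13.9 at T30 and 24.1, 5.09 and 4.62 at T60. All later crz1 libraries lie above the T0 libraries, and it rose by 4.08 ± 0.91 at T15 and 3.68 ± 0.91 at T30 (limma, adjusted p = 0.00177 and 0.00472), calls that remained in every setting run. Its rim101 values were 0 and 3.94 RPKM at T0, 11.9 and 35.3 at T15, 41.8 and 26.8 at T30 and 4.82 and 4.53 at T60, above T0 in all 6 later libraries, and RPC34 rose at T30 by 3.96 ± 1.11 (limma, adjusted p = 0.0162), a call lost with library type as a covariate and without rim101 T0 replicate 1 or either library of rim101 T30. Both rim101 T30 libraries are of the higher-median type and neither T0 library is, so time and library type cannot be told apart there. In WT it had 0, 15.3 and 0 RPKM at T0, 12.9, 10.2 and 28.6 at T15, 37.3, 15.6 and 10.3 at T30 and 25.2, 21.2 and 4.88 at T60, so that only WT T0 replicate 2 overlaps the later libraries. RPC34 rose in WT by 2.71 ± 0.91, 2.93 ± 0.91 and 2.57 ± 0.91 (limma, adjusted p = 0.0394, 0.0193 and 0.0362), differences whose size depends on the pseudocount since 2 of the 3 WT T0 libraries are listed at 0. With pseudocount 5 the WT calls at T15, T30 and T60 were lost, as they were without replicate 1 or 3 of WT T0. They were also lost without replicate 1 or 3 of WT T15, without WT T30 replicate 1 and without replicate 1 or 2 of WT T60, at T30 and T60 without the higher-median libraries, and at T60 with quantile normalization and with library type as a covariate.

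RPC31 (PAS_chr1-1_0259, chromosome 1, 1056031 to 1056639) was listed at 0 in 11 of the 32 libraries. In crz1 it had 0, 0 and 0 RPKM at T0, 67.2, 17.4 and 2.27 at T15, 59.7, 4.54 and 11 at T30 and 43, 0 and 0 at T60. In rim101 it had 0 and 0.950 RPKM at T0, 6.72 and 38.9 at T15, 59.7 and 36.2 at T30 and 0 and 0 at T60, and the WT libraries had 0, 4.71 and 0 RPKM at T0, 2.47, 2.75 and 15.9 at T15, 57.1, 7.95 and 3.20 at T30 and 47.2, 34.5 and 0 at T60. The 9 highest RPC31 values are the 9 higher-median libraries, and within the mixed groups RPC31 was higher in those libraries by 3.75 on the log2 scale, the widest gap of any member. It rose in rim101 at T30 by 5.09 ± 1.81 (limma, adjusted p = 0.0421), where library type moves with time as for RPC34. The RPC31 call was lost with median-ratio scaling, quantile normalization and library type as a covariate, and without any 1 of the rim101 libraries compared. No fold is given for crz1, whose T0 libraries are all listed at 0. RPC17 (PAS_chr3_1051, chromosome 3, 2020805 to 2021266), which with RPC25 forms the stalk of polymerase III in S. cerevisiae, was listed at 0 in 22 libraries. Of its 10 values above 0, 9 came from the higher-median libraries and the highest, 33.6 RPKM, from WT T0 replicate 2. RPC25 (PAS_chr4_0735, chromosome 4, 1404458 to 1405060) ranged from 3.63 to 85.5 RPKM, was 2.34 higher on the log2 scale in the higher-median libraries of mixed groups, and passed no test.

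Of the other polymerase III mRNAs, RPC11 (PAS_chr3_0942, chromosome 3, 1841221 to 1841606), which in S. cerevisiae supports RNA cleavage and termination, had 3.22, 12.8 and 8.35 RPKM at T0, 66.9, 58 and 43.9 at T15, 57, 31.2 and 34.8 at T30 and 29.1, 20.9 and 15.9 at T60 in crz1. Levels in rim101 were 0.771 and 25.5 RPKM at T0, 44 and 50.1 at T15, 48.8 and 44.1 at T30 and 21 and 23.6 at T60, and the WT libraries had 0, 53.1 and 6.66 RPKM at T0, 38.4, 46.7 and 50.1 at T15, 58.4, 46.1 and 36 at T30 and 30.6, 33.1 and 24.6 at T60. WT T0 replicate 2 lies above all but 1 of the later WT libraries, and the other 2 WT T0 libraries lie below all of them. RPC11 rose in crz1 at T15 by 2.79 ± 0.90, and in WT at T15 and T30 by 2.62 ± 0.90 and 2.65 ± 0.90 (limma, adjusted p = 0.0255, 0.0431 and 0.0295). Without the higher-median libraries the RPC11 calls in crz1 and WT were lost, and quantile normalization ended both WT calls and median-ratio scaling that at T30. The crz1 call of RPC11 was lost without replicate 1 or 3 of crz1 T0 or replicate 1 or 2 of crz1 T15. The WT calls were lost without replicate 1 or 3 of WT T0, without any 1 library of WT T15 and without replicate 1 or 2 of WT T30. RPC53 (PAS_chr3_0574, chromosome 3, 1092941 to 1094023) and RPC37 (PAS_chr4_0031, chromosome 4, 66039 to 66815) form a dimer that resembles an initiation factor of polymerase II. RPC53 ranged from 14.7 to 95.3 RPKM and rose in WT at T60 by 1.43 ± 0.47 (limma, adjusted p = 0.0259). RPC37 ranged from 15.6 to 84.6 RPKM and rose at T30 in rim101 by 1.45 ± 0.51 and in WT by 1.16 ± 0.42 (limma, adjusted p = 0.0423 and 0.041). The rim101 call of RPC37 was lost with median-ratio scaling, quantile normalization and library type as a covariate, and without rim101 T0 replicate 1 or either library of rim101 T30. The WT calls of RPC53 and RPC37 were lost without the higher-median libraries, with quantile normalization and without replicate 1 or 3 of WT T0 or replicate 1 or 2 of the later group. That of RPC53 was also lost with library type as a covariate, and that of RPC37 with median-ratio scaling. RPC37 is the only member whose span overlaps another gene, GCN3, by 4 bases, and the libraries were not directional.

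At T0 the typical polymerase II mRNA was more abundant per length than that of polymerase I or III. Group means in WT at T0 had a median of 82.4 RPKM for polymerase II, 22.2 RPKM for polymerase I, 12.6 RPKM for polymerase III and 121 RPKM for the subunits shared by all. RPO21 (PAS_chr3_0568, chromosome 3, 1079704 to 1084935), the largest subunit, which carries the C-terminal repeats, had 94.2, 121 and 132 RPKM at T0, 69.1, 97.3 and 142 at T15, 84.2, 152 and 133 at T30 and 86.9, 134 and 146 at T60 in crz1. In rim101 it had 129 and 157 RPKM at T0, 111 and 70.0 at T15, 106 and 73.1 at T30 and 122 and 149 at T60, and the WT libraries had 124, 49.4 and 140.0 RPKM at T0, 134, 151 and 111 at T15, 68.7, 119 and 146 at T30 and 72.9, 76.9 and 169 at T60. The groups overlap in every strain except rim101 at T15 and T30, where the later libraries lie below T0. No difference passed the test, the lowest being -0.69 ± 0.47 in rim101 at T30 (limma, adjusted p = 0.217). RPO21 was lower in the higher-median libraries of all 6 mixed groups, by a mean of -0.82.

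RPB2 (PAS_chr2-1_0125, chromosome 2, 236012 to 239695), the second largest subunit of polymerase II, had 59.8, 59.7 and 52.3 RPKM at T0, 98.2, 75.9 and 57.4 at T15, 102, 67.5 and 73.5 at T30 and 106, 66.5 and 67.2 at T60 in crz1, with no call. The rim101 mutant gave 54.3 and 63.6 RPKM at T0, 53 and 107 at T15, 117 and 95.7 at T30 and 71.3 and 64.5 at T60. RPB2 rose there at T30 by 0.84 ± 0.31 (limma, adjusted p = 0.0496), against a median of all genes of 0.85. In WT it had 47.2, 41.8 and 50.8 RPKM at T0, 55, 56.8 and 75.4 at T15, 104, 75.8 and 64.1 at T30 and 87.2, 95.3 and 66.1 at T60, with the later libraries all above the T0 libraries. It rose in WT by 0.76 ± 0.26 at T30 and 0.80 ± 0.26 at T60 (limma, adjusted p = 0.0291 and 0.0224), against a median of all genes of 0.62 and 0.65. RPB7 (PAS_chr4_0906, chromosome 4, 1697020 to 1697535), a stalk subunit that pairs with RPB4, had 25.7, 26.2 and 18.7 RPKM at T0, 80.2, 38.9 and 17.5 at T15, 102, 30.5 and 35.1 at T30 and 54.8, 26.4 and 21.2 at T60 in crz1. In rim101 it had 20.0 and 18.4 RPKM at T0, 27.8 and 80.2 at T15, 97.8 and 69.6 at T30 and 25.4 and 19.2 at T60, and the WT libraries had 17.9, 8.18 and 15.7 RPKM at T0, 24.5, 21.2 and 44.8 at T15, 83.7, 40.5 and 30.9 at T30 and 46, 42.8 and 18.7 at T60. Its highest value in each strain came from a higher-median library, and the later WT libraries lie above T0 at every time. RPB7 rose at T30 in rim101 by 2.05 ± 0.67 and in WT by 1.76 ± 0.55 (limma, adjusted p = 0.0315 and 0.019). The rim101 calls of RPB2 and RPB7 were lost with library type as a covariate and without any 1 of the rim101 libraries compared, and that of RPB2 also with median-ratio scaling, quantile normalization and no filter. The WT calls of RPB2 were lost with median-ratio scaling, with quantile normalization, and without replicate 1 or 2 of WT T0 or replicate 1 or 2 of the later group, and that at T60 also with library type as a covariate and without the higher-median libraries. The WT call of RPB7 was lost without WT T0 replicate 2 or WT T30 replicate 1. RPB4 (PAS_chr2-2_0104, chromosome 2, 2182905 to 2183465) ranged from 153 to 432 RPKM with no call.

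RPB3 (PAS_chr4_0344, chromosome 4, 702204 to 703118) and RPB11 (PAS_chr3_0244, chromosome 3, 492700 to 493115) form the assembly platform of polymerase II. RPB3 ranged from 161 to 243 RPKM over all libraries, the narrowest range of any member as a ratio. Its rises were small: 0.43 ± 0.10 in crz1 at T30, and 0.36 ± 0.10 and 0.29 ± 0.10 in WT at T30 and T60 (limma, adjusted p = 0.00323, 0.00948 and 0.0352). The crz1 value is about the median of all genes in crz1 at T30, 0.43. The WT values lie below the median of all genes, 0.62 and 0.65, and with median-ratio scaling the WT differences turned to -0.16 and -0.30. All 3 calls of RPB3 were lost with median-ratio scaling and quantile normalization, the WT call at T30 also without WT T0 replicate 1, and that at T60 without the higher-median libraries and without replicate 1 or 3 of WT T0 or replicate 1 or 2 of WT T60. RPB11 ranged from 13.3 to 133 RPKM, was 2.12 higher in the higher-median libraries of mixed groups, and passed no test. RPB9 (PAS_chr1-4_0359, chromosome 1, 2069838 to 2070179), which in S. cerevisiae helps the enzyme keep its accuracy, ranged from 57 to 157 RPKM with no call.

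**Figure D3:**
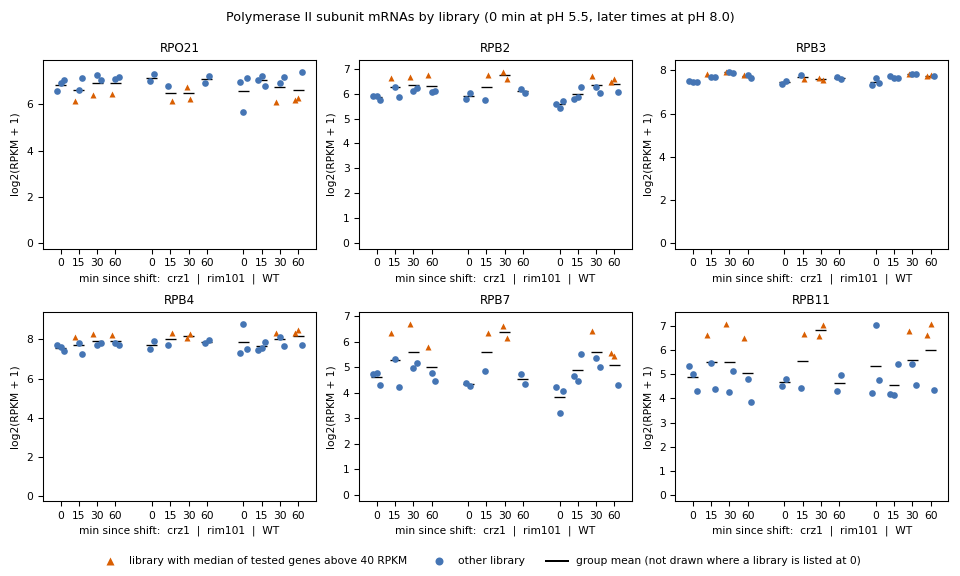
Level of 6 polymerase II mRNAs in every library, on a log2(RPKM + 1) axis, against minutes since the shift in crz1, rim101 and WT, with symbols as for the polymerase I and III mRNAs. RPB3 is nearly flat, RPO21 is lower and RPB7 and RPB11 are higher in the libraries with a median above 40 RPKM.

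RPC40 and RPC19 form the platform that polymerases I and III share, the counterpart of RPB3 and RPB11. RPC40 (PAS_chr4_0826, chromosome 4, 1555887 to 1556894) had 24.4, 39.7 and 25.9 RPKM at T0, 211, 127 and 51.1 at T15, 173, 62.1 and 83.3 at T30 and 174, 57.8 and 47.4 at T60 in crz1. The rim101 libraries held 23.4 and 60.1 RPKM at T0, 61.6 and 178 at T15, 164 and 139 at T30 and 47.4 and 46.6 at T60, and the WT libraries had 12.5, 74.2 and 22.1 RPKM at T0, 57.3, 41.2 and 123 at T15, 182, 83.2 and 56.6 at T30 and 179, 143 and 48.3 at T60. In crz1 the T15, T30 and T60 libraries lie above T0, whereas in WT they overlap it through WT T0 replicate 2. RPC40 rose in crz1 at T15 by 1.89 ± 0.68 and in WT at T60 by 1.92 ± 0.68 (limma, adjusted p = 0.0458 and 0.035). Both calls were lost without the higher-median libraries, where the WT difference was 0.79. The crz1 call of RPC40 was also lost with no filter and without any 1 library of crz1 T0 or replicate 1 or 2 of crz1 T15, and the WT call with median-ratio scaling, quantile normalization and library type as a covariate and without replicate 1 or 3 of WT T0 or replicate 1 or 2 of WT T60. RPC19 (PAS_chr4_0925, chromosome 4, 411421 to 411831) had 36.3, 53.7 and 33.3 RPKM at T0, 301, 165 and 47.2 at T15, 257, 69.8 and 89.2 at T30 and 204, 58.9 and 35.6 at T60 in crz1. It had 29.5 and 53 RPKM at T0, 72 and 258 at T15, 231 and 212 at T30 and 35.9 and 43.4 at T60 in rim101 and 19.6, 79.3 and 32 RPKM at T0, 63, 54.7 and 146 at T15, 247, 108 and 55.6 at T30 and 226, 205 and 36.2 at T60 in WT, and passed no test. The differences of RPC19 were close to those of RPC40, for example 1.60 ± 0.78 beside 1.75 ± 0.68 in WT at T30, and both were higher in the higher-median libraries of all 6 mixed groups, by 1.93 and 1.49.

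None of the 5 mRNAs of subunits common to all polymerases passed the test in any strain. RPB5 (PAS_chr3_0157, chromosome 3, 316473 to 317117) ranged from 47 to 293 RPKM. RPO26 (PAS_chr2-2_0434, chromosome 2, 1573940 to 1574407) ranged from 65.9 to 456 RPKM. RPB8 (PAS_chr2-2_0309, chromosome 2, 1794867 to 1795304) ranged from 62.8 to 375 RPKM. These 3 were higher in the higher-median libraries of every mixed group, by 1.42, 1.95 and 1.56 on the log2 scale. RPB10 (PAS_chr2-1_0223, chromosome 2, 423742 to 423960) ranged from 145 to 505 RPKM, and RPC10 (PAS_chr1-1_0166, chromosome 1, 867713 to 867934), which is the subunit also called Rpb12 in S. cerevisiae, ranged from 115 to 432 RPKM. RPB10 moved little with library type (0.24) and RPC10 was lower in those libraries (-0.44).

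**Figure D4:**
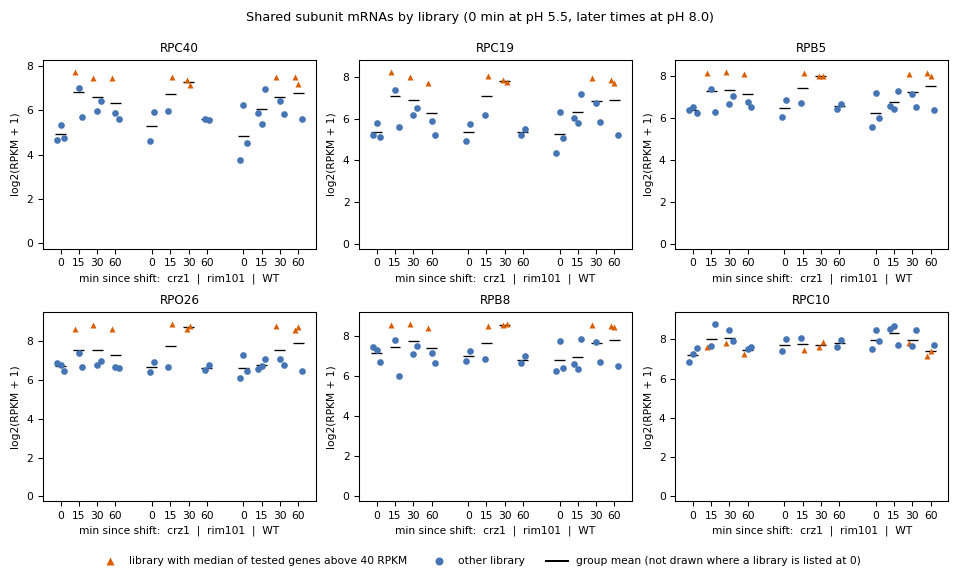
Level of 6 mRNAs of shared subunits in every library, on a log2(RPKM + 1) axis, against minutes since the shift in crz1, rim101 and WT. Triangles, the libraries with a median above 40 RPKM, have a mean above that of the circles in each of the 6 mixed groups for RPC40, RPC19, RPB5, RPO26 and RPB8, and below it for RPC10.

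Over the 6 groups that hold both types, 22 of the 29 mRNAs were higher in the higher-median libraries of every group, 3 were lower in every group (RPA135, RPO21 and RPC10), and 19 exceeded the gap of 0.54 found as the median of all genes tested. The types were set by the median over the genes tested, so genes at large were higher there too. The share of all genes that were higher or lower in every mixed group was not counted. As many genes tested lie above a median as below it. RPO21, RPA135, RPO31, RPB3 and RPC82 lay between -0.82 and 0.15, and RPC31, RPC17, RPA14 and RPC25 at 2.34 or more. Since no T0 library is of the higher-median type, differences from T0 hold this gap in every group with such a library. The WT T15 group holds none, so its 7 rises compare libraries on 1 side of the 40 RPKM cut. That does not make them free of differences between libraries, and the spread behind the test was estimated over all groups. Its calls of RPA12 and RPC11 were lost without the higher-median libraries. The libraries of WT T15 also differed, with medians of 24.7, 23.2 and 33.9 RPKM in replicates 1, 2 and 3. The 5 genes with the highest means held 15.0%, 14.4% and 9.5% of their gene reads. That share was 4.81% to 6.30% in the higher-median libraries and 8.59% to 15.6% in the others. WT T15 replicate 3 thus lies between the higher-median type and the other WT T15 libraries.

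**Figure D5:**
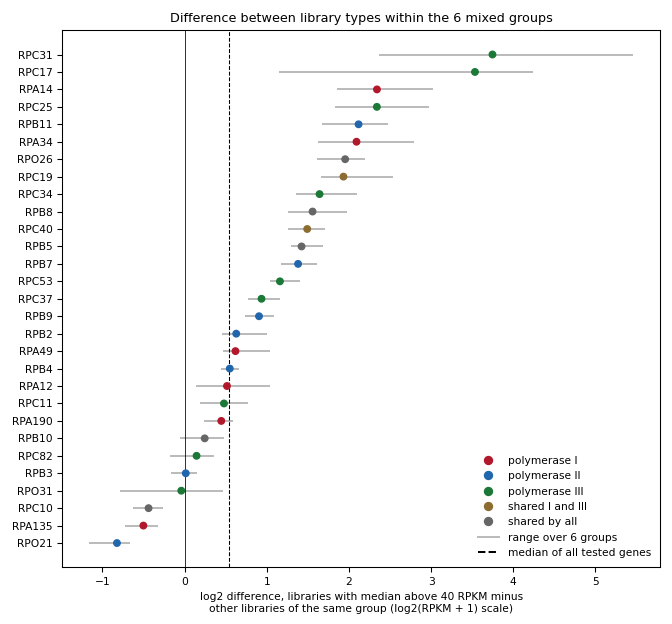
Difference of each subunit mRNA between the libraries with a median above 40 RPKM and the other libraries of the same group (log2(RPKM + 1) scale, mean over 6 groups, bars from the lowest to the highest group). The dashed line marks the median of all genes tested, 0.54; RPC31 lies farthest right and RPO21 farthest left.

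No subunit mRNA differed between a mutant and WT at any time (limma, adjusted p under 0.05), in comparisons that called 0.071%, 0.568%, 0.426% and 0.26% of all genes for crz1 at T0, T15, T30 and T60, and 0.118%, 1.06%, 1.51% and 1.66% for rim101. Between 0 and 2 of the 29 had an unadjusted p under 0.05 in each. The lowest adjusted p was 0.380, for RPC31 in rim101 at T60, where both rim101 libraries are listed at 0. RPO31 was higher at T0 in rim101, at 3.60 and 8.71 RPKM against 0.963, 2.41 and 2.13 RPKM in WT, a difference of 1.28 ± 0.46 that does not overlap and did not pass (limma, adjusted p = 0.953).

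The change since T0 was also set against that of WT in a single model. None of the 29 responses differed (0 or 1 in each comparison had an unadjusted p under 0.05), while 0%, 0.0237% and 0% of all genes did for crz1 at T15, T30 and T60 and 0.45%, 0.781% and 0.568% for rim101. For RPA190 the crz1 response minus the WT response was 0.02 ± 0.59, -0.34 ± 0.59 and -0.40 ± 0.59 (log2 ± SE), and the rim101 response minus the WT response was -0.66 ± 0.66, -0.70 ± 0.66 and -1.22 ± 0.66. For RPO31 the crz1 values were -0.25 ± 0.58, -0.47 ± 0.58 and -0.21 ± 0.58, and the rim101 values were -1.27 ± 0.65, -1.54 ± 0.65 and -1.21 ± 0.65. The lowest unadjusted p among the responses of the 29 mRNAs, 0.0251, was that of RPO31 in rim101 at T30 (limma, adjusted p = 0.889). With these standard errors a difference in response of about 1 unit was not detectable, and a p that misses the threshold does not show that the strains respond alike. All responses share the WT T0 libraries, among them replicate 2.

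The authors' deposited table, which sets every group against WT T0, gave an adjusted p (FDR) under 0.05 to other numbers of these mRNAs than the limma fit. For crz1 the authors' deposited table had RPA190, RPA135, RPA49 and RPO31 higher than in WT T0 at T15, and RPA190 and RPO31 at T30. For rim101 at T30 the authors' deposited table had 5 mRNAs higher than in WT T0, namely RPA14, RPA190, RPC19, RPC31 and RPO26. It had 4 lower, namely RPB3, RPO21, RPC82 and RPC10. The limma fit against rim101 T0 called 5 higher, RPB2, RPB7, RPC37, RPC34 and RPC31, of which only RPC31 was higher in both. In the authors' deposited table RPA190, RPA135 and RPO31 were higher in WT at T15, RPA190 and RPO31 at T30, and none at T60. RPA190 and RPO31 were thus called at T15 and T30 in crz1 and WT by both the deposited comparison and the limma fit, whose contrasts for crz1 differ in their T0 group.

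Genes that work with the polymerases were taken from lists of S. cerevisiae names, of which only part matched a tested symbol. RET1, the second largest subunit of polymerase III and a partner of RPO31, had 10.2, 19.1 and 12.8 RPKM at T0, 56.7, 58.4 and 34.2 at T15, 41.6, 32.2 and 35 at T30 and 34.8, 23.5 and 22.4 at T60 in crz1. It rose there by 1.76 ± 0.39 at T15 and 1.34 ± 0.39 at T30 (limma, adjusted p = 0.00184 and 0.0157). In rim101 it had 9.14 and 24.6 RPKM at T0, 29.9 and 39.3 at T15, 40.1 and 26.2 at T30 and 22.2 and 19.1 at T60, and the WT libraries had 4.07, 17.3 and 9.38 RPKM at T0, 30.9, 25.2 and 53.3 at T15, 38.3, 34.4 and 27.6 at T30 and 27.8, 25 and 21.6 at T60. Every later WT library lies above T0, and RET1 rose in WT by 1.85 ± 0.39, 1.79 ± 0.39 and 1.38 ± 0.39 (limma, adjusted p = 0.0015, 0.00178 and 0.0125). The T15 calls of RET1 in crz1 and WT and that at T30 in WT remained in every setting run. The crz1 call at T30 and the WT call at T60 were lost with quantile normalization and without the higher-median libraries, the first also without replicate 1 or 3 of crz1 T0 or crz1 T30 replicate 1 and the second also with median-ratio scaling and without replicate 1 of WT T0 or of WT T60. Of the 4 polymerase III genes of the list that were tested, RET1 alone rose in WT, and TFC7, of the initiation factor TFIIIC, differed by -1.47 ± 1.14 at T30 without passing. MAF1, the repressor of polymerase III, was chosen after its values were seen. It fell in crz1 at T15 by -1.02 ± 0.33 (limma, adjusted p = 0.0278), a call lost without the higher-median libraries and without replicate 1 or 2 of crz1 T0 or replicate 2 or 3 of crz1 T15, and its WT difference at T15 was -0.77 ± 0.33, which did not pass. The 2 polymerase I factors tested, RRN7 and NSI1, passed in no comparison with T0, at -0.82 ± 0.77 and 0.39 ± 0.22 in WT at T30. Both had an unadjusted p under 0.05 in WT at T60 (limma). RRN7, a low mRNA, had 3.47, 2.33 and 4.96 RPKM at T0 and 0, 0 and 2.25 at T60 there. NSI1 had 25.1, 14.1 and 24.5 RPKM at T0 and 23.6, 33.5 and 30.3 at T60.

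Of 16 polymerase II factors tested, 1 (KIN28) rose in WT at T15, 2 (KIN28 and SPT5) at T30 and 2 (SPT5 and SSL2) at T60, and 1 (TFA1) fell at T15. Over all genes tested, 13.4%, 24.1% and 26.9% rose in WT at T15, T30 and T60, and 5.18% fell at T15. The rises of these factors thus lie below the share of all genes at each time. SPT5, SSL2 and TFA1 are named after their values were seen. KIN28, a kinase of the initiation factor TFIIH, rose by 2.24 ± 0.67 at T15 and 2.11 ± 0.67 at T30 (limma, adjusted p = 0.0198 and 0.0217), from 1.30, 0 and 1.46 RPKM at T0. Its cyclin partner CCL1 differed by 1.08 ± 1.17 at T30 without passing. CCL1 was listed at 0 in every WT T0 library and had 8.49, 0 and 0 RPKM at T30. The sizes of these differences depend on the pseudocount. Both KIN28 calls were lost with quantile normalization and without WT T0 replicate 2, that at T15 also without WT T15 replicate 3, and that at T30 with median-ratio scaling and without WT T30 replicate 2. The calls of TFA1, SPT5 and SSL2 in WT were each lost with quantile normalization. Those of SPT5 and SSL2 were also lost with median-ratio scaling, and those at T60 without the higher-median libraries. The SSL2 call was lost with library type as a covariate too. Leaving out 1 library ended that of TFA1 for WT T0 replicate 3 or WT T15 replicate 1, those of SPT5 for WT T0 replicate 2 or WT T30 replicate 1 at T30 and WT T60 replicate 1 or 2 at T60, and that of SSL2 for replicate 2 or 3 of WT T0 or replicate 1 or 2 of WT T60. SPT15, the TATA-binding protein that all nuclear polymerases use, differed by 0.26 ± 0.66 at T30 without passing. Of 6 factors of polymerase assembly and import tested, 1 rose at T15, 2 at T30 and 3 at T60 in WT, against the same shares of all genes. RBA50 rose at T30 and T60 by 1.92 ± 0.65 and 1.95 ± 0.65, and GPN2 at T60 by 2.31 ± 0.69 (limma, adjusted p = 0.0291, 0.0271 and 0.0164). GPN3, chosen after its values were seen, rose in WT at all 3 times by 1.69 ± 0.44, 1.49 ± 0.44 and 1.44 ± 0.44 (limma, adjusted p = 0.008, 0.0142 and 0.0181). The WT calls of RBA50, GPN2 and GPN3 were lost without the higher-median libraries, except that of GPN3 at T15, and each was lost without WT T0 replicate 1. Apart from those of GPN3 at T15 and T30, they were also lost without WT T0 replicate 3 or replicate 1 or 2 of the later group. The mitochondrial polymerase RPO41 rose in crz1 at T15 by 2.47 ± 0.62 (limma, adjusted p = 0.00448), a call that remained in every setting run. It had 0, 0.524 and 0 RPKM at T0 and 7.357, 8.155 and 2.367 at T15 there. RPO41 and its factor MTF1 passed in no WT comparison, at 0.19 ± 0.62 and 0.08 ± 0.30 at T30. Every WT T0 library is listed at 0 for RPO41, so the size of its differences depends on the pseudocount in both strains.

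As a wider frame, genes whose symbol begins with UTP, NOP or NOC and a digit are mostly ribosome assembly factors. Of 31 tested, 29, 23 and 16 rose in crz1 at T15, T30 and T60, 7, 20 and 0 rose in rim101, and 21, 26 and 24 rose in WT. Their median log2 differences in WT were 2.20, 2.39 and 2.20. Leaving out 1 library gave 21 to 30, 14 to 24 and 7 to 16 rises in crz1, 0 to 9, 0 to 17 and 0 to 1 in rim101, and 14 to 26, 17 to 28 and 12 to 28 in WT. In each strain and at each time the lowest of these counts was reached without T0 replicate 1. Counts over 1.5-fold lower also came without crz1 T60 replicate 1 (9), rim101 T15 replicate 2 (0), rim101 T30 replicate 1 (1) or 2 (5), and WT T60 replicate 1 (13). When the higher-median libraries were left out, 8 rose in crz1 at T60, 1 in rim101 at T15 and 0 in WT at T60. The rim101 count at T30 was 8 with median-ratio scaling, 4 with quantile normalization and 2 with library type as a covariate, and the WT count at T30 was 17 with quantile normalization. Of 70 mRNAs of cytosolic ribosomal proteins, none rose or fell in WT (limma, adjusted p under 0.05), while 2, 1 and 3 had an unadjusted p under 0.05 at T15, T30 and T60, and their medians were 0.12, 0.07 and -0.08. Without WT T0 replicate 2, 12, 12 and 11 of the ribosomal protein mRNAs rose in WT, and without WT T60 replicate 3, 5 rose at T60. The polymerase I medians in WT, 1.75, 1.68 and 1.75, lay between those of these 2 lists. No test of the difference between lists was made.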

How the data were processed

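RNA-seq libraries were made by the submitters from poly-A RNA without strand information, per the labels' protocols. The tools listed in the submitters' processing notes are Bowtie2 and edgeR, without versions. The sources used here give no genome build. The deposited expression table holds RPKM computed by the authors for 5040 genes. The second table holds the authors' log2 fold changes, p-values and FDR of each group over WT T0 for 4581 genes, per the file headers, and entered no test here. Gene spans are those of the deposited table, and all 29 members have the same locus tag and span in RefSeq's table of assembly ASM2700v1.

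The tests ran on log2(RPKM + 1), a scale that makes differences of low genes look smaller, and no count model was run since the unit is already scaled. Genes with a mean of at least 1 RPKM (4226, all 29 members among them) were fitted over all 12 groups with limma 3.58.1 in R 4.3.3 (moderated two-sided test with an intensity trend and 20 residual degrees of freedom). P-values were adjusted by Benjamini-Hochberg within each comparison, and 0.05 was the threshold for calling a rise or a fall. A run of the fit on simulated data used independent noise for each gene. It held no library types and no library that stands apart, so it cannot show how these move the calls. With 2 libraries per group, rim101 leans on the spread pooled over groups. Depth was read from low values times gene length, of which 94.2% to 97.5% lay within 0.1 of a whole read. Of 928 member values, 38 were listed at 0, in RPC34, RPC31, RPC17 and RPC11. Library type was set at a median of 40 RPKM over tested genes. Alternatives were median-ratio scaling, quantile normalization, pseudocount 5, no filter, replicate number as a block, library type as a covariate, leaving out the higher-median libraries, and leaving out each library. Tables and plots were made in Python 3.11.15 with pandas 2.3.3, numpy 2.4.6 and matplotlib 3.10.9.

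The members, the lists and the rule for naming genes were chosen with earlier results of these data known. Every member is named, the largest and second largest subunits and the 2 members of each class with the largest WT change at T30 are given by library, and so are a few further members with calls. Of each list of factors at most 2 genes are named by the same change, others being marked as chosen later. Promoter motifs and protein sequences were not analysed here.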

Additional observations from a re-analysis of the deposited data

How the results depend on the processing

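Across the 9 comparisons with T0 there were 51 calls of subunit mRNAs, all rises. Of these, 18 were kept with each library of the compared groups left out, 12 under every other setting and 11 under all, among them RPA190, RPA135, RPA49, RPA12, RPO31 and RPC34 in crz1 at T15 and RPA190, RPA49 and RPO31 in WT at T15. Median-ratio scaling gave 2 rises and 1 fall in rim101 at T30. With this scaling, WT counts at T30 were 5 in all, with 2 of polymerase I, 1 of II and 2 of III, and at T60 they were 5 in all, with 0 of polymerase II and 0 shared. Quantile normalization gave 13, 3 and 1 rises in crz1 at T15, T30 and T60, and 2 rises and 1 fall in rim101 at T30. With quantile normalization, WT counts at T30 were 4 in all, with 2 of polymerase I, 1 of II and 1 of III, and at T60 they were 0 in all and 0 in each class. The fall was that of RPC82 under both. RPB3 reversed in WT, to -0.16 at T30 and -0.30 at T60 with median-ratio scaling and to -0.090 at T60 with quantile normalization, which also turned SSL2 in WT at T60 to -0.0917. With pseudocount 5, WT had 3 rises of polymerase I at T30 and 1 of polymerase III at T60. With library type as a covariate, crz1 had 5 rises at T60, rim101 had 0 at T30, and WT had 13 at T15 (2 of polymerase II, 5 of III, 1 shared), 1 shared at T30 and 5 in all at T60 (1 of II, 1 of III, 0 shared). Without the higher-median libraries, crz1 had 1 rise at T60, and WT had 1 polymerase II rise at T15, 6 rises at T30 (2 of polymerase I, 1 of III) and 0 at T60 in all and in each class. That setting could not be fitted for rim101 at T30, where both libraries are of that type. For these changes the cause was not tested.

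Same-numbered libraries of different groups had correlations of their deviations from -0.82 to 0.90 over 160 pairs, with a median of 0.13 and 83 over 0.1, and 308 other-numbered pairs had a median of -0.06. Not every same-numbered pair was over 0.1 and the labels name nothing that a number shares, so the numbers were not taken to pair the libraries. With the replicate block, rim101 had 1 rise at T15 and 12 at T30, and WT had 1 shared rise at T30 and 5 of polymerase I at T60.

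Leaving out 1 library each, the crz1 rises ranged from 6 to 12, 4 to 7 and 0 to 4 at T15, T30 and T60, and the rim101 rises from 0 to 3, 0 to 6 and 0 to 0. The WT rises ranged from 4 to 11 at T15 (3 to 5 of polymerase I, 0 to 1 of II, 1 to 4 of III, 0 to 1 shared). They ranged from 4 to 14 at T30 (2 to 5 of polymerase I, 1 to 3 of II, 1 to 5 of III, 0 to 2 shared) and from 1 to 18 at T60 (1 to 5, 0 to 3, 0 to 6 and 0 to 5). With each library left out, 0 members fell in any strain and 0 differed in the 14 comparisons of mutants with WT, and no other setting gave such a difference either. Where an arm is left with 1 library, it is assumed to vary like the others. Low values limit RPC34, RPC31, RPC17 and RPC11, which have libraries listed at 0. The same limit holds for the factor genes RPO41, CCL1, KIN28, RRN7, RBA50 and TFC7. The settings were run for the factor genes and the wider lists after their values were seen.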
